A study of Mus musculus with 16 samples.

Results

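The immunoglobulin and plasma cell genes described here were every gene whose biotype in the deposited tables begins with IG_, with immunoglobulin pseudogenes left out, together with 4 genes added by name, Jchain, Mzb1, Cd79a and Cd79b. They made 154 of the 30277 listed genes. There were 138 variable (V) genes, of which 64 belong to the heavy-chain locus, 71 to the kappa locus and 3 to the lambda locus. There were also 11 constant genes (7 heavy, 1 kappa and 3 lambda) and 1 joining gene, Ighj4, and 8 immunoglobulin pseudogenes were left out.

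Polyadenylated RNA of whole mouse kidney was sequenced after perfusion and flash freezing, in 16 libraries. All mice were of the inbred strain 129S1/SvlmJ and congenic for Kl, a recessive mutation of the Klotho gene, and by the labels Kl/Kl mice had renal disease. The question was how renal failure and sex bear on kidney gene expression. The values are TPM, reads relative to gene length on a common total, in 1 table for each sex. The male table holds 3 controls, all heterozygous (+/Kl) and 45 or 46 days old, and 5 Kl/Kl mice of 44, 45 or 47 days. The female table holds 4 controls, all wild type (+/+) and 45, 48 or 49 days old, and 4 Kl/Kl mice of 45, 48 or 54 days. No label names a treatment. Sex, table and the genotype of the controls therefore cannot be told apart, and tests were run inside a table. Each library has its own code and ages differ within every group, but no label says outright that each library came from a separate animal. The p-values cover the spread between these libraries, part of which may be technical.

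Antibodies are made of paired heavy and light chains. Each chain joins a variable region, put together from V and J segments (with D segments in heavy chains), to a constant region that sets the class of the antibody: IgM, IgD, IgG or IgA for heavy chains, kappa or lambda for light chains. Plasma cells, the end stage of B cells, hold very large amounts of these transcripts. IgA is the main antibody class of mucosal surfaces, where it is secreted as a dimer held by the joining chain.

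Between 21.6 and 31.7 M reads were estimated for each library. Kl, the mutated gene, was at least 4.14 TPM in each male control and at most 0.265 TPM in each Kl/Kl male. In the library labelled female Kl/Kl replicate 3 the 6 proximal tubule genes summed to 7.60 TPM, against 374 to 4732 TPM in the other 15 libraries, and heart and airway genes were abundant, among them Nppa, an atrial peptide gene, at 1185 TPM. That library, from the 54-day-old mouse, does not have the make-up of kidney, and its low Kl checks nothing, so results in females are given with and without it. Male control replicate 3 also stood apart, with 54.3% of its summed values on mitochondrial genes against at most 44.8% in the other males. In these bulk samples fewer plasma cells and less antibody RNA per cell cannot be told apart.

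Several of these genes are near copies of each other, and reads can be split between them in ways that the counting decides. The kappa genes Igkv1-110 and Igkv1-117, both lower in Kl/Kl males by the test, are shown for this reason. Their coding sequences of 359 bases differ at 10 positions (97.2% identity). The letters are bases 60 to 359 of the GENCODE M21 reference transcripts, which hold all 10, on the plus strand of build GRCm38 (chr6:68270968-68271267 and chr6:68121528-68121827). Both stretches lie in the exon of the V segment, and capitals mark the bases that differ.
Igkv1-110: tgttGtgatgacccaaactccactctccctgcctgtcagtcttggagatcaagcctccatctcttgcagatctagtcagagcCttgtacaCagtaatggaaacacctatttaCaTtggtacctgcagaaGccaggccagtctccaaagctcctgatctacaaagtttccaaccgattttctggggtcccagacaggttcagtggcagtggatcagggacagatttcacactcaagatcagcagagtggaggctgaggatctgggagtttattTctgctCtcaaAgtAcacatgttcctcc
Igkv1-117: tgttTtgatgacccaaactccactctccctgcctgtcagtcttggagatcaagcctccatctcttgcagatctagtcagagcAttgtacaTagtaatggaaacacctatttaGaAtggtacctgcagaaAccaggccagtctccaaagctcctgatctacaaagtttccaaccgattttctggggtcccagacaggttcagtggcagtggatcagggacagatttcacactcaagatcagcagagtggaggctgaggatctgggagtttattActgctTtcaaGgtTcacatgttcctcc

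The lambda constant genes Iglc2 and Iglc3 are the closest pair of constant genes compared, with 96.2% identity over their coding bases, against 73.4% and 74.2% for each with Iglc1. Bases 1 to 300 of each are shown in the same way, from the minus strand in GRCm38 (chr16:19198554-19198853 and chr16:19065382-19065681), all within the constant exon, with capitals at bases that differ or that the other transcript lacks.
Iglc2: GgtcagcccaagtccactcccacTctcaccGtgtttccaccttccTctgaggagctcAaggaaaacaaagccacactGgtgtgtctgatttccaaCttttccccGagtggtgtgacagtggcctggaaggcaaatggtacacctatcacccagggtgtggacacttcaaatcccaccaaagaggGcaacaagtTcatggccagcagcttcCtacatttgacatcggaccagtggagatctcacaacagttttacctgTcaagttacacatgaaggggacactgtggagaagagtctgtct
Iglc3: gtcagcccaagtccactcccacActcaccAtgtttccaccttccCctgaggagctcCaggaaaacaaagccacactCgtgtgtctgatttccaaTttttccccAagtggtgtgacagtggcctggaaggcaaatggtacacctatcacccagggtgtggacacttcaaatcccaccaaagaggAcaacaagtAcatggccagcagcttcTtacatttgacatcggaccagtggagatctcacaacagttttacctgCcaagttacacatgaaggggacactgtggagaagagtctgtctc
Iglc1 reads can be told from those of the other lambda genes over most of the coding sequence, while Iglc2 and Iglc3 levels are uncertain. Ighg2b and Ighg2c share 85.7% of their aligned coding bases. The reference genome comes from C57BL/6J mice, whose heavy-chain locus is of another haplotype than that of 129S1/SvlmJ mice, so counts of single heavy-chain V genes and of IgG2 subclasses are uncertain too.

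All 154 genes had at least 0.5 estimated read in at least 1 library, 154 in the male table and 152 in the female table. Only 12 had reads in every library, and 134 reached 5 estimated reads in at least 1 library. Reads on immunoglobulin genes were few but far from equal between groups. They made 189, 173 and 194 per M reads in the male controls. In the 5 Kl/Kl males they made 40.5, 21.5, 9.11, 8.07 and 57.3 per M reads, all below the controls. The female controls had 38.3, 63.7, 26.4 and 12.7 per M reads, and the female Kl/Kl libraries 19.4, 22.4, 443 and 26.7 per M reads, where 443 belongs to the library without kidney make-up. Without it the Kl/Kl females lay within the range of the female controls.

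Kidneys of Kl/Kl males held less IgA heavy chain, kappa and lambda light chain and joining chain transcript than those of male controls, at 10.4% to 15.9% of the control mean for Igha, Igkc, Iglc1 and Jchain. Ighg2b, an IgG constant gene, was instead above all controls in 4 of 5 Kl/Kl males. Its groups overlapped, with Kl/Kl replicate 4 the lowest male library (exact permutation p = 0.286). In females no immunoglobulin gene passed the test, with or without replicate 3.

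Igha, the constant gene of IgA (chromosome 12, 113218450 to 113223857, minus strand, build mm39), was 19.1, 16.3 and 12.1 TPM in male controls. In Kl/Kl males it was 1.68, 1.02, 0.401, 0.726 and 4.38 TPM. The groups did not overlap, and the highest Kl/Kl male, replicate 5, was well below the lowest control. The control mean was 15.8 ± 3.53 TPM (SD, n = 3). The Kl/Kl mean was 1.64 ± 1.60 TPM (SD, n = 5), and Igha fell (change of -2.82 in log2(TPM + 1), with an SE of 0.37, limma adjusted p = 0.00134). On this scale, used for every log2 change here unless another is named, changes of genes near or under 1 TPM are smaller than the log2 ratio of the levels.

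Igkc, the only kappa constant gene (chromosome 6, 70703419 to 70703951, plus strand), was 84.1, 84.7 and 85.5 TPM in male controls. It was 24.4, 9.07, 3.70, 3.61 and 26.6 TPM in Kl/Kl males. All Kl/Kl males were lower, with replicates 1 and 5 the highest of them. The near equal control values belong to the TPM scale: as estimated reads per kilobase of exon per M reads, they were 75.4, 76.9 and 122. Igkc fell (log2 change -2.98, with an SE of 0.58, limma adjusted p = 0.0148). Without male control replicate 2 the limma adjusted p was 0.0512 with the same log2 fall.

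Iglc1, a lambda constant gene (chromosome 16, 18880368 to 18880822, minus strand), was 4.30, 2.47 and 1.78 TPM in male controls. In Kl/Kl males it was 0.485, 0.693, 0.480 and 0.290 TPM in replicates 1, 2, 4 and 5, and it had no reads in replicate 3. The groups did not overlap. It fell (log2 change -1.44, with an SE of 0.22, limma adjusted p = 0.00348). It passed the filter of a mean of 1 TPM only through the controls, with a Kl/Kl mean of 0.390 TPM.

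Iglc2 and Iglc3 (chromosome 16, 19017146 to 19019102 and 18883980 to 18884432, minus strand) were below the filter of a mean of 1 TPM. Iglc2 was 0.294, 0.290 and 0.442 TPM in male controls and 0.0588 to 0.158 TPM in Kl/Kl males. Iglc3 was 0.508, 0.506 and 0.493 TPM in male controls, and 0.195 and 0.255 TPM in Kl/Kl males 1 and 5, with no reads in the other 3. Neither gene overlapped between the groups, with a two-sided exact permutation p of 0.0357 each, the smallest that 3 against 5 libraries allow. Such tests were run for 15 genes in each sex and their p-values are not adjusted.

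**Figure D1:**
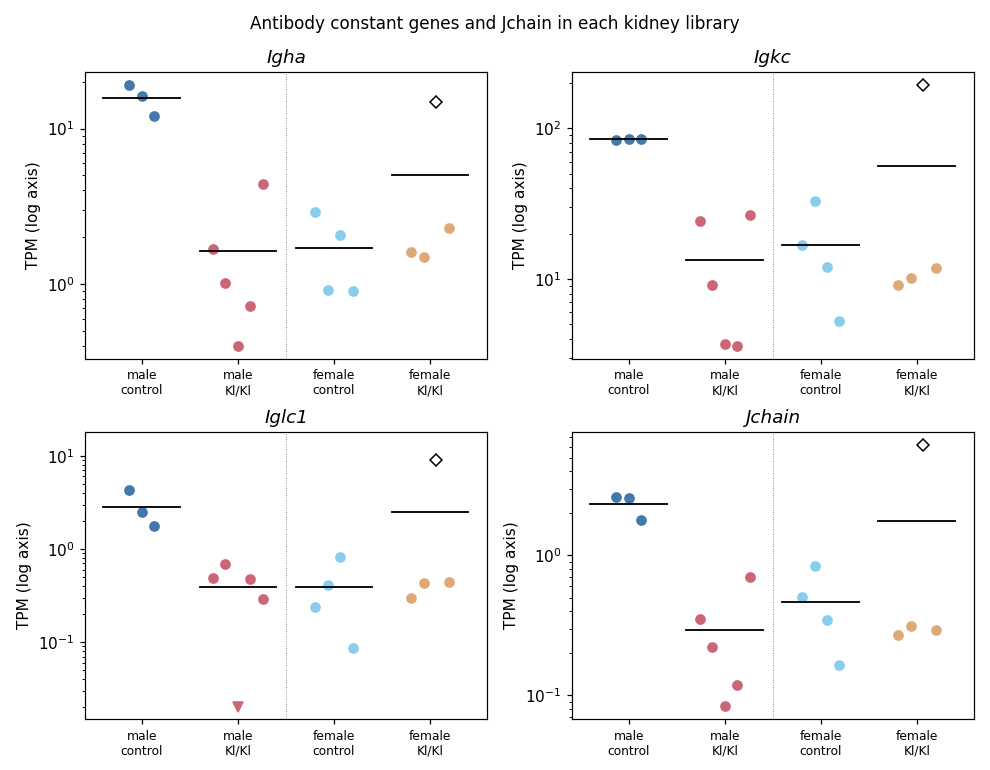
TPM (log axis) of Igha, Igkc, Iglc1 and Jchain in each library, with 1 point per library and a line at the group mean. The open diamond is the library labelled female Kl/Kl replicate 3, the triangle is a library with no Iglc1 reads, and male controls lie above all Kl/Kl males in each panel.

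Jchain encodes the joining chain that links IgA dimers and IgM pentamers (chromosome 5, 88667668 to 88675751, minus strand). It was 2.62, 2.56 and 1.80 TPM in male controls and 0.349, 0.221, 0.0839, 0.119 and 0.700 TPM in Kl/Kl males. The order of the Kl/Kl males resembled that for Igha, with replicate 5 highest and replicates 3 and 4 lowest. Jchain fell (log2 change -1.37, with an SE of 0.16, limma adjusted p = 0.000757). It passed the filter only through the controls, with a Kl/Kl mean of 0.294 TPM, and was not in the fit without male control 1 or 2. Per Jchain read there were 4.25 to 4.88 Igha reads in male controls and 3.08 to 4.19 in Kl/Kl males.

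Levels of different genes can be set side by side only per length of transcript. In estimated reads per kilobase of exon per M reads, male controls had 29.9 to 35.0 for Igha, 75.4 to 122 for Igkc, 7.47 to 8.27 for Jchain and 2.25 to 3.86 for Iglc1. Kl/Kl males had 0.835 to 8.50 for Igha, 3.32 to 25.5 for Igkc and 0.276 to 2.15 for Jchain. In each male library Igkc was above Igha and Igha above Jchain. Exon lengths were taken from GENCODE M21.

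The genes of the other heavy-chain classes overlapped between the male groups, unlike Igha. Ighm encodes the heavy chain of IgM, the first class a B cell makes (chromosome 12, 113382178 to 113386351, minus strand). It was 0.578, 0.798 and 0.575 TPM in male controls and 0.275, 0.444, 0.187, 0.188 and 0.890 TPM in Kl/Kl males. The Kl/Kl mean was 61.0% of control, the same direction as for Igha, with 4 of 5 Kl/Kl males below all controls. The groups overlapped through Kl/Kl replicate 5 (exact permutation p = 0.179). Whether the Ighm change differed from that of Igha was not tested. Ighd, the IgD heavy chain carried by naive B cells (113370224 to 113379945), had at most 10 estimated reads in any male library.

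The 4 IgG subclass genes lie between Ighd and Igha on chromosome 12. Ighg2b (113266585 to 113271554) was 0.162, 0.165 and 0.109 TPM in male controls. It was 1.22, 0.371, 0.212, 0.00878 and 0.315 TPM in Kl/Kl males, higher than all controls in 4 of 5 libraries and lowest of all in replicate 4 (exact permutation p = 0.286). Ighg2c (113248945 to 113252553) was 0.180, 0.134 and 0.135 TPM in male controls and 0.715, 0.265, 0.132, 0.0121 and 0.210 TPM in Kl/Kl males, and these groups overlapped as well (exact permutation p = 0.643). Ighg1 (113288860 to 113294144) ranged from 0.0475 to 0.109 TPM in male controls and from 0.00826 to 0.159 TPM in Kl/Kl males. Ighg3 (113319844 to 113324853) had 5.00 estimated reads in Kl/Kl male 1 and at most 1.06 in any other male.

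Summed over the 4 subclasses, IgG made 1.82, 1.41 and 1.87 estimated reads per M reads in male controls. Kl/Kl males had 9.04, 3.51, 1.74, 0.120 and 2.55 per M reads, on both sides of the controls. The make-up of the heavy-chain reads thus differed between the male groups. IgA took 95.8%, 94.5% and 94.3% of reads on heavy-chain constant genes in male controls, against 45.6%, 50.0%, 45.1%, 81.1% and 77.9% in Kl/Kl males. IgG took 1.67% to 1.89% in male controls and 48.7%, 32.8%, 35.2%, 2.70% and 8.77% in Kl/Kl males. These shares rest on 2486 to 2815 heavy-chain reads in controls but only 111 to 924 in Kl/Kl males.

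In females IgA took 69.6%, 16.1%, 77.5% and 62.4% of heavy-chain constant reads in controls and 74.7%, 61.9%, 72.9% and 70.6% in Kl/Kl libraries. Female control 2 stood apart with 60.0% IgM and 23.9% IgG. Among light chains, kappa took 83.0% to 97.5% of constant reads over all male libraries and 92.2% to 96.7% over all female libraries.

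**Figure D2:**
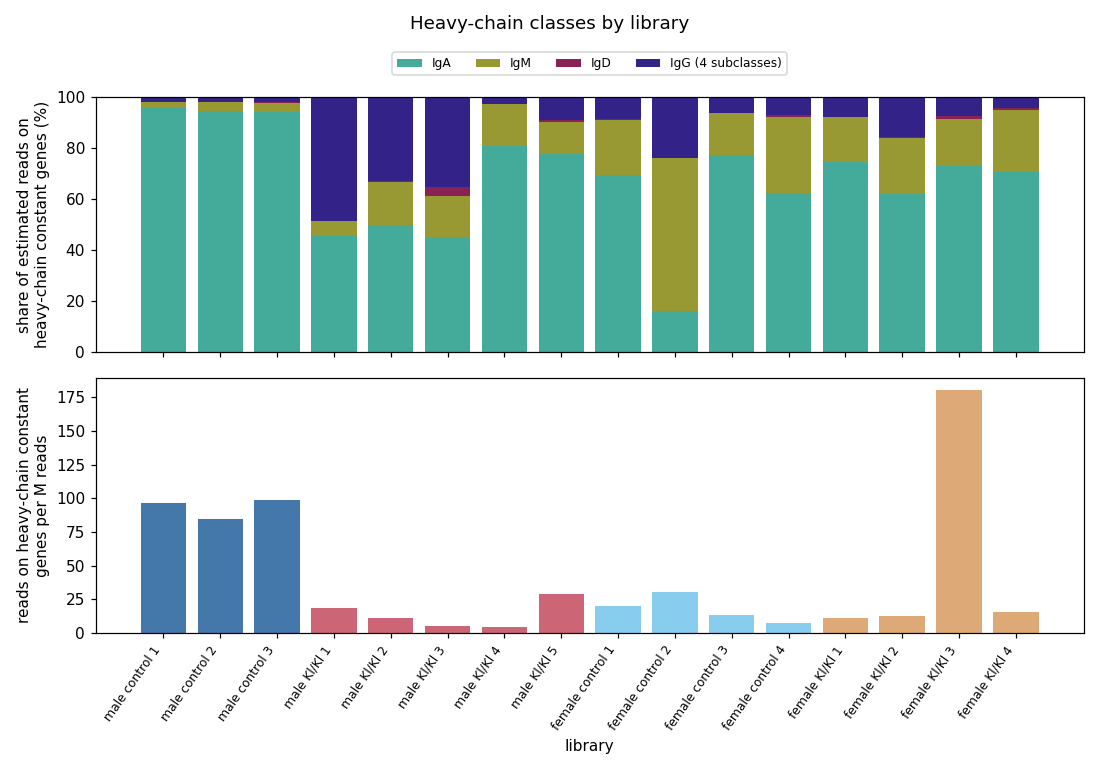
Upper bars give the share (%) of estimated reads on heavy-chain constant genes by class, and lower bars the estimated reads on these genes per M reads, for each of the 16 libraries. IgA takes 94.3% to 95.8% in male controls and 45.1% to 81.1% in Kl/Kl males.

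The genes Mzb1, Cd79a and Cd79b differed among themselves in males, with Kl/Kl means of 189%, 33.7% and 113% of control. Mzb1 encodes a chaperone of the endoplasmic reticulum that helps antibody assembly in marginal zone B cells and plasma cells (chromosome 18, 35780320 to 35782421, minus strand). It was 0.524, 0.558 and 0.772 TPM in male controls and 1.56, 0.879, 0.805, 1.93 and 0.658 TPM in Kl/Kl males. It was thus higher than all controls in 4 of 5 Kl/Kl libraries (exact permutation p = 0.0714). In females it was 0.353 to 0.502 TPM in controls and 0.766, 1.31, 0.279 and 1.01 TPM in Kl/Kl libraries, above all controls except in replicate 3. The gene Prob1, chosen after its values were seen, lies 983 bases from Mzb1 on the same strand. Prob1 was 10.2, 9.05 and 8.03 TPM in male controls and 20.2, 12.4, 11.0, 29.9 and 14.4 TPM in Kl/Kl males, with the same 2 libraries highest as for Mzb1. Another listed gene, Gm50318, spans Mzb1 on that strand. The part of these neighbours in the Mzb1 values was not tested.

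Cd79a and Cd79b encode the 2 signalling chains of the B cell receptor. Cd79a (chromosome 7, 24596806 to 24601623, plus strand) was 0.0396, 0.0327 and 0.0579 TPM in male controls, and 0.0230, 0.00704, 0.00906 and 0.0341 TPM in Kl/Kl males 1, 3, 4 and 5, with no reads in replicate 2. That is at most 10.0 estimated reads in a library. In 4 of 5 Kl/Kl males it was below all controls, the same way as the antibody genes, and the groups overlapped through replicate 5 (exact permutation p = 0.0714). Cd79b (chromosome 11, 106202167 to 106205589, minus strand) was 0.213, 0.190 and 0.163 TPM in male controls and 0.180, 0.245, 0.228, 0.229 and 0.183 TPM in Kl/Kl males, with overlapping ranges (exact permutation p = 0.25).

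Over all 154 genes, without a filter, every Kl/Kl male lay below every male control for 41 genes, on both TPM and estimated reads. By the same rule 3.12% of all 30277 listed genes did so. None of the 154 had every Kl/Kl male above every control, where 10.4% of all listed genes did. The 41 were 34 of the 138 V genes (10 of 64 heavy, 22 of 71 kappa and 2 of 3 lambda), 5 of the 11 constant genes (Igha, Igkc and the lambda genes), Ighj4 and Jchain. The Kl/Kl mean was lower than the control mean for 140 of the 154, against 31.4% of all listed genes.

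The fit across the male table tested the 8439 genes that averaged 1 TPM or more. It held 9 of the 154, of which 8 fell and none rose, where 2.18% of all tested genes fell and 3.74% rose. Of these 9, 7 had a Kl/Kl mean under the filter and so passed through their control values, which means that this count describes them and is no measure of the whole family. With a filter of 0.1 TPM, 29 of 111 fell (2.01% of all 17382 genes tested fell and 2.11% rose), and with limma-voom on estimated reads and that filter 47 of 111 fell (4.76% of those genes fell and 11.2% rose), with none rising in either. In a 4-group model of all 16 libraries Igkc, Jchain, Iglc1, Iglv1 and Igkv1-117 missed the threshold (limma adjusted p of 0.0558 to 0.128), and with no filter Igkc, Igkv1-110, Iglv1 and Igkv1-117 did (0.0597 to 0.0914). The median log2 change of the 9 was -1.49, against 0.19 over all tested genes.

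Igkv10-96, a kappa V gene (chromosome 6, 68608947 to 68609427, minus strand), had the smallest adjusted p. It was 2.49, 2.72 and 3.41 TPM in male controls and 0.895, 0.146, 0.212, 0.454 and 0.411 TPM in Kl/Kl males. The groups did not overlap, and it fell (log2 change -1.46, with an SE of 0.17, limma adjusted p = 0.000652). Like the other V genes in this fit, it passed the filter only through the controls. The p-values of these V genes thus describe genes that entered by being high in controls.

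Igkv1-110, printed above (mm39 chromosome 6, 68247469 to 68248252, plus strand), was 3.96, 6.98 and 3.30 TPM in male controls. In Kl/Kl males it was 0.226, 0.235, 0.0511 and 2.04 TPM in replicates 1, 2, 3 and 5, with no reads in replicate 4. It fell (log2 change -2.02, with an SE of 0.34, limma adjusted p = 0.00648). Its near copy Igkv1-117 (68098030 to 68098812) was 6.90, 2.32 and 1.23 TPM in male controls and at most 0.862 TPM in Kl/Kl males, and it fell (log2 change -1.66, with an SE of 0.35, limma adjusted p = 0.0222). Without male control 2 its limma adjusted p was 0.0503, and without Kl/Kl male 3 it was 0.0511. Which of the pair led differed among controls, with Igkv1-117 higher in control 1 and Igkv1-110 higher in controls 2 and 3.

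Iglv1 is a lambda V gene (chromosome 16, 18903767 to 18904251, minus strand). It was 4.63, 2.47 and 0.807 TPM in male controls and at most 0.364 TPM in Kl/Kl males, and it fell (log2 change -1.49, with an SE of 0.28, limma adjusted p = 0.0142). The heavy-chain gene Ighv5-17 (chromosome 12, 113822769 to 113823291, minus strand) was 3.86, 3.90 and 1.18 TPM in male controls. In Kl/Kl males 2 to 4 it was 0.130 to 0.201 TPM and in replicate 1 it had no reads, but it was 3.20 TPM in replicate 5, and it did not pass (log2 change -1.35, with an SE of 0.44, limma adjusted p = 0.0882). Without replicate 5 it fell, with a log2 change of -1.73 (limma adjusted p = 0.00454). Ighj4, a J segment of 54 bases, had 1, 3 and 2 estimated reads in the male controls and none in any Kl/Kl male.

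V genes with reads numbered 121, 115 and 106 of 138 in the male controls. They numbered 80, 66, 42, 20 and 88 in Kl/Kl males, all fewer. In female controls they numbered 76, 72, 68 and 43 and in female Kl/Kl libraries 49, 56, 114 and 60. Such counts go with the number of reads on V genes, and they are no measure of diversity by themselves. Kappa V genes took 26.0, 24.9 and 20.6 reads per M reads in male controls and 4.64, 3.18, 1.11, 0.953 and 7.59 in Kl/Kl males. Heavy V genes took 21.2, 19.1 and 6.27 per M reads in male controls and 4.44, 2.33, 0.693, 0.542 and 6.58 in Kl/Kl males. The heavy V reads of control 3 were thus below those of Kl/Kl male 5, although its heavy-chain constant reads, 98.9 per M reads, were the most of any male.

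**Figure D3:**
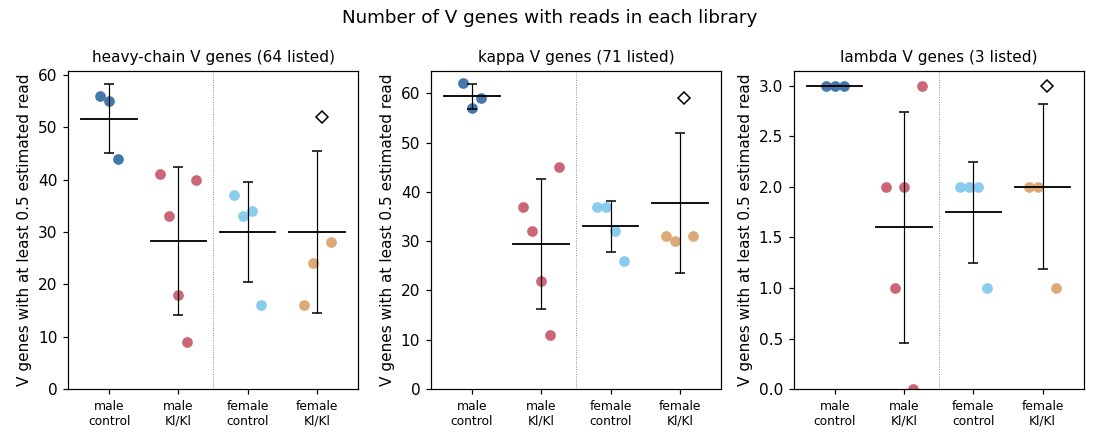
Number of V genes with at least 0.5 estimated read in each library, for the heavy, kappa and lambda loci, with 1 point per library, a line at the group mean and bars of 1 SD. The open diamond is the library labelled female Kl/Kl replicate 3, and male controls have 44 to 56 heavy and 57 to 62 kappa V genes with reads.

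No V gene made up most heavy or kappa reads of a library. Ighv5-17 had the most heavy V reads in all 3 male controls, with 8.51%, 9.70% and 14.0% of them, although in control 1 its 52.6 reads were close to the 52.3 of Ighv9-3. The heavy gene with the most reads in Kl/Kl males 1 to 5 was Ighv2-9, Ighv8-12, Ighv5-17, Ighv8-11 and Ighv5-17, at 8.07% to 24.3%, where the 24.3% is 50.9 reads of Ighv5-17 in replicate 5. Those of replicates 3 and 4 had 2.00 reads each and were tied, with Ighv6-3 in replicate 3 and with Ighv5-17 and Ighv1-59 in replicate 4, so none led there. Leading kappa genes in male controls were Igkv1-117 with 18.6%, and Igkv1-110 with 19.9% and 17.9%. In Kl/Kl males they were Igkv10-96 in replicates 1 and 3, Igkv10-94 in 2, Igkv12-46 in 4 and Igkv1-110 in 5, at 8.62% to 25.3%, with 3.00 to 48.5 reads on that gene. The 3.00 reads of replicate 3 were shared as a tie by Igkv10-96, Igkv19-93 and Igkv1-135. Iglv1 led the lambda V genes in all male controls and Kl/Kl males 1 to 3, while replicate 5 had 4.00 lambda V reads led by Iglv2 and replicate 4 had none.

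In females the largest share of a heavy V gene was that of Ighv2-9 in control 2, with 30.3% of heavy V reads, in the same library that was rich in IgM. Ighv2-9 also led in control 1, and Ighv5-17 in controls 3 and 4. In Kl/Kl libraries the leading heavy genes were Ighv7-1, Ighv14-3, Ighv5-9-1 and Ighv8-11. The leading kappa genes were Igkv6-17, Igkv1-117, Igkv1-110 and Igkv10-96 in the controls and Igkv2-137 in Kl/Kl replicate 2, with Igkv1-110 in the other 3 Kl/Kl libraries. Iglv1 led the lambda V genes in 7 of 8 female libraries, and in control 3 it had 1.00 read, as had Iglv2.

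In females the Kl/Kl libraries other than replicate 3 lay within the range of the controls for Igha, Igkc, Jchain and Iglc1. Igha was 2.90, 0.920, 2.06 and 0.908 TPM in female controls and 1.61, 1.49, 14.8 and 2.29 TPM in Kl/Kl libraries. The log2 change was 0.74 (with an SE of 0.61, limma adjusted p = 0.745), and without replicate 3 it was 0.11 (with an SE of 0.25, limma adjusted p = 0.847).

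Igkc was 16.9, 33.0, 12.0 and 5.28 TPM in female controls and 9.09, 10.1, 195 and 11.9 TPM in Kl/Kl libraries. Again replicate 3 alone was above the controls. The log2 change was 0.63 (with an SE of 1.02, limma adjusted p = 0.769), and without replicate 3 it was -0.40 (with an SE of 0.48, limma adjusted p = 0.672). Leaving replicate 3 out, Kl/Kl means as a percentage of control were 106% for Igha, 61.7% for Igkc, 62.5% for Jchain and 101% for Iglc1.

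Jchain was 0.503, 0.845, 0.345 and 0.164 TPM in female controls and 0.268, 0.311, 6.14 and 0.291 TPM in Kl/Kl libraries. Iglc1 was 0.240, 0.409, 0.823 and 0.0859 TPM in female controls and 0.298, 0.434, 8.91 and 0.447 TPM in Kl/Kl libraries. The log2 changes with all libraries were 0.45 for Jchain and 0.74 for Iglc1 (limma adjusted p = 0.745 for each).

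Ighm was 1.16, 4.45, 0.562 and 0.560 TPM in female controls and 0.486, 0.696, 4.85 and 1.03 TPM in Kl/Kl libraries, with a log2 change of 0.02 (with an SE of 0.55, limma adjusted p = 0.99). Ighg2c was 0.151, 1.45, 0.0847 and 0.0432 TPM in female controls, where control 2 was again the highest, and 0.0596, 0.191, 0.948 and 0.0787 TPM in Kl/Kl libraries. Ighg2b was 0.0471 to 0.242 TPM in controls and 0.0653 to 0.717 TPM in Kl/Kl libraries. The remaining constant genes also overlapped: Ighd had at most 2 estimated reads in a female library other than replicate 3, and Ighg1, Ighg3, Iglc2 and Iglc3 were at most 0.327 TPM outside it.

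The female fit tested 8596 genes, 9 of the 154 among them, and called none of the 9 in either direction. None of the 9 reached an unadjusted p under 0.05 by limma or by limma-voom at that filter, where 4.82% of all genes tested did by limma. Of all genes tested 0.0349% fell and 0% rose. Of the 9, 5 had a control mean under the filter. Without replicate 3 there were 4 of the 154 in the fit and again none passed (0.0457% of all genes fell and 0.0572% rose), with 1 at an unadjusted p under 0.05. Over all 154 genes 1, the heavy-chain gene Ighv1-53, had every Kl/Kl library below every control (1.62% of all listed genes), and none had every one above (0.766%). Without replicate 3, Ighv1-53 and Ighv2-9 lay below and Ighv1-4 and Mzb1 above, where 1.96% and 1.63% of all listed genes did, so these counts are near the background. The Kl/Kl mean was the lower for 50 of the 154 with all libraries and 83 without replicate 3, against 55.4% and 37.4% of all listed genes. Those shares also include genes without reads, ordered only by the offset, and are not matched backgrounds.

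The difference between the female and male changes was tested over all 16 libraries. For Igha the female change was higher than the male change by 3.56 in log2 units (with an SE of 0.76), which did not pass (limma adjusted p = 0.106). Without female Kl/Kl replicate 3 the difference was 2.93 (with an SE of 0.51, limma adjusted p = 0.00736), and without male Kl/Kl replicate 5 it was 3.86 (with an SE of 0.71, limma adjusted p = 0.0498). With any other single library left out it did not pass. The limma adjusted p then ranged from 0.0858 without female Kl/Kl replicate 2 to 0.392 without male control 2. Of the 154 genes 8 entered this fit and none passed with all libraries, while 7 had an unadjusted p under 0.05 (7.73% of all genes did), and 0.211% of all 8535 genes tested passed. For Igkc, Jchain and Iglc1 the differences were 3.61, 1.83 and 2.18 (limma adjusted p = 0.542 for each). A fixed offset between the tables cancels here, but sex, table and control genotype remain joined.

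Of genes that act around plasma cells, Ccl28 fell in males. It encodes a chemokine of epithelial surfaces that draws IgA plasma cells through the receptor Ccr10. It was 3.74, 7.76 and 2.95 TPM in male controls and 0.0981, 0.103, 0.0977, 0.103 and 0.136 TPM in Kl/Kl males, 2.23% of the control mean. The groups did not overlap, and Ccl28 fell (log2 change -2.30, with an SE of 0.21, limma adjusted p = 9.58e-05). It passed the filter only through the male controls, with a Kl/Kl mean of 0.107 TPM, in this fit and in that of the difference between the sexes, so its entry into the tests was tied to being high there. In females it was 0.724, 0.105, 0.627 and 0.183 TPM in controls and 0.163, 0.0661, 0.0148 and 0.237 TPM in Kl/Kl libraries, with overlap. The female change was higher than the male change by 2.00 in log2 units (with an SE of 0.29, limma adjusted p = 0.0043). Whether Ccl28 bears on the Igha values was not tested.

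Ccl28 was 1 of 12 listed genes for survival and homing signals of B and plasma cells. Of the 4 tested in males it alone passed the threshold, having entered through its control values (2.18% of all tested genes fell). The list median log2 change was 0.28 against 0.19 over all tested genes, and none of 3 passed in females. Cxcl12, a chemokine that holds plasma cells in bone marrow, was 8.07 to 14.0 TPM in male controls and 12.7 to 24.3 TPM in Kl/Kl males (limma adjusted p = 0.143). Ccr10, chosen after its values were seen, was 0.137 to 0.192 TPM in male controls and 0.107 to 0.180 TPM in Kl/Kl males.

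Antibody transport and Fc receptor genes showed no passing change, with 0 of 6 tested of 11 in males (median log2 change -0.04) and 0 of 7 in females (median -0.23, against -0.16 over all tested genes). Pigr encodes the receptor that carries dimeric IgA across epithelia and was named after its values were seen. It was 11.0, 10.7 and 3.11 TPM in male controls and 6.93, 10.6, 5.58, 8.81 and 10.4 TPM in Kl/Kl males, where control 3 was the lowest of all. Its log2 change was 0.15 (with an SE of 0.35, limma adjusted p = 0.799), and without control 3 it was -0.36 (with an SE of 0.23, limma adjusted p = 0.306). Lrp2, the endocytic receptor megalin of the proximal tubule, was 3.76 to 27.9 TPM in male controls and 7.92 to 18.0 TPM in Kl/Kl males. Amn, the partner of the endocytic receptor cubilin, was 18.3 to 33.0 TPM and 14.0 to 26.1 TPM.

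Of 12 plasma cell genes other than the antibody genes, 3 were tested and none passed in either sex (median log2 change 0.13 in males and -0.43 in females). Xbp1, a transcription factor of secretory cells that kidney tubules express too, was 10.3 to 29.7 TPM in male controls and 16.3 to 37.6 TPM in Kl/Kl males. Creld2, an endoplasmic reticulum protein, was 2.27 to 7.76 TPM and 2.15 to 3.57 TPM. The summed level of the list was 14.5 to 40.7 TPM in male controls and 21.8 to 44.6 TPM in Kl/Kl males, most of it Xbp1. Without Xbp1 it was 4.20 to 11.0 TPM and 4.95 to 7.40 TPM. The more specific members Tnfrsf17, the survival receptor of plasma cells, and Pou2af1, a B cell coactivator, had at most 3.00 and 8.00 estimated reads in a male library, too few to compare with the antibody genes. Sdc1, a surface protein on the list, went the other way from the antibody genes and was chosen after its values were seen. It was 0.260 to 0.629 TPM in male controls and 0.958 to 1.19 TPM in Kl/Kl males, without overlap and below the filter of the test.

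**Figure D4:**
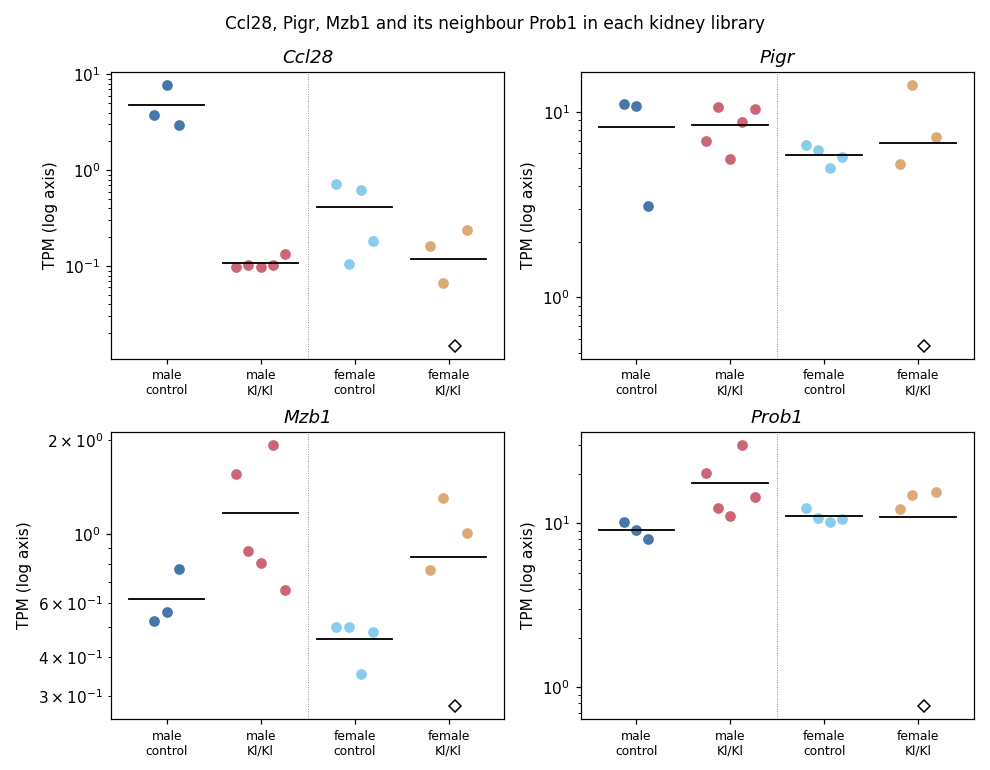
TPM (log axis) of Ccl28, Pigr, Mzb1 and its neighbour Prob1 in each library, with 1 point per library and a line at the group mean. Ccl28 is 2.95 to 7.76 TPM in male controls and 0.0977 to 0.136 TPM in Kl/Kl males, and the open diamond is the library labelled female Kl/Kl replicate 3.

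Markers of B cells were low in TPM, a scale on which a gene of long span can hold many reads at a low value. None of 14 B cell genes reached the filter in either table, and 11 of them were under 0.1 TPM in every library other than female Kl/Kl replicate 3. The sum of the list was 0.636 to 1.10 TPM in male controls and 0.507 to 1.19 TPM in Kl/Kl males. Its highest members in TPM were Cd72, a B cell coreceptor (0.379 to 0.767 TPM in male controls and 0.278 to 0.626 TPM in Kl/Kl males), and Cd37, a tetraspanin of lymphocytes (0.132 to 0.173 and 0.0723 to 0.348 TPM). Ebf1, also listed and chosen after its values were seen, was at most 0.0364 TPM in any male. It nevertheless had 185 to 237 estimated reads in male controls and 163 to 323 in Kl/Kl males. The TPM sums therefore give little weight to such genes. None of 12 T cell genes reached the filter, with sums of 1.07 to 1.43 TPM in male controls and 0.515 to 1.11 TPM in Kl/Kl males. Without Trac, a T cell receptor gene and the highest of them, the sums were 0.324 to 0.545 TPM and 0.252 to 0.737 TPM. The lower sums of Kl/Kl males thus came from Trac.

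Some marker genes of other cell types also changed between the male groups. Of 8 macrophage genes 3 rose among 6 tested, where 3.74% of all tested genes rose. They were Lyz2, encoding lysozyme, by 1.39, Cd14, a receptor for bacterial lipopolysaccharide, by 1.5 and Cd68, a lysosomal protein, by 0.75 on the log2 scale (limma adjusted p = 0.00326, 0.00568 and 0.0431). Csf1r, the receptor for macrophage growth factors, went the other way without passing, at 1.91 to 3.18 TPM in male controls and 0.879 to 1.87 TPM in Kl/Kl males (log2 change -0.56, limma adjusted p = 0.0826). The summed macrophage level was 7.31 to 13.0 TPM in male controls and 16.6 to 27.5 TPM in Kl/Kl males. Of 6 proximal tubule genes, all tested, 2 fell, where 2.18% of all tested genes fell. They were Slc22a6, an organic anion transporter, and Kap, an androgen-regulated kidney gene. Kap made up most of the summed level in male controls, with 3451 to 4081 TPM there and 76.2 to 369 TPM in Kl/Kl males. Without Kap the other 5 summed to 518 to 825 TPM in male controls and 256 to 653 TPM in Kl/Kl males, which overlapped. Slc5a2, a glucose transporter, had a log2 change of 0.03 (limma adjusted p = 0.964). Genes of lymphatic vessels and lymph nodes, a possible neighbouring tissue, summed to 1.78 to 2.88 TPM in male controls and 1.64 to 3.53 TPM in Kl/Kl males. The part of any of these in the antibody gene values was not tested.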

How the data were processed

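Per the labels, polyadenylated RNA was made into libraries with a directional kit. The authors deposited TPM values in 1 table for each sex, 8 libraries each. The submitters' processing notes name mm39 and Partek; the sources used here do not give the aligner, counter, strand use or filters. In the deposited values the gene length is the genomic span, introns included, so estimated reads (not counts) were computed as TPM times span relative to an offset of 0.0001 read; 72.1% to 74.6% of low genes then lay within 0.05 of a whole read. Shares of these reads carry no counting interval.

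Values were fitted as log2(TPM + 1) with limma 3.58.1 in R 4.3.3 (lmFit, eBayes with trend) keeping genes that averaged 1 TPM or more, with Benjamini-Hochberg adjustment over all genes of the fit and a threshold of 0.05. Every adjusted p is from limma. Exact two-sided permutation tests over libraries used SciPy 1.17.1. Scripts were tested on simulated data. Named were all constant genes, the 4 genes added by name, V genes past the threshold or leading a library, and from each other list up to 4 genes that passed or otherwise up to 2 with the highest mean. The members and lists were chosen with earlier results of these data known. Alternatives covered pseudocount, filter, scaling, voom, array weights, age, replicate block, a 4-group model and leaving out each library; voom with a filter of 0.1 TPM, run with all libraries and without female Kl/Kl replicate 3, was chosen after seeing the data.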

Additional observations from a re-analysis of the deposited data

Results flagged for a closer look

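In groups of 4 or 5 libraries, single libraries far from the others were looked for in the 11 constant genes, Jchain, Mzb1, Cd79a, Cd79b and Ccl28. Of 48 sets of values 13 had such a library, where chance gives about 1 in 20.

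The library labelled female Kl/Kl replicate 3 accounts for 8 of the 13. It was highest for Igha (14.8 TPM, group median 1.95), Ighm (4.85 TPM, median 0.864), Ighd (0.169 TPM), Ighg2c (0.948 TPM), Igkc (195 TPM, median 11.0), Iglc1 (8.91 TPM), Iglc2 (1.35 TPM) and Jchain (6.14 TPM, median 0.301).

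Female control 2 was highest for Ighm (4.45 TPM, group median 0.859) and Ighg2c (1.45 TPM, median 0.118). Female control 3 was lowest for Mzb1 (0.353 TPM). Kl/Kl male 1 was the only one of its group with Ighg3 reads (0.0440 TPM), and Kl/Kl male 5 was highest for Ccl28 (0.136 TPM, median 0.103).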

How the results depend on the processing

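In males 8 genes passed. No filter gave 16, a filter of 0.1 TPM 29, that filter with limma-voom 47 and the 4-group model 2, Igha and Igkv1-110 (the cause was not tested). Leaving out each library gave 4 to 9, with 4 without male control 1 (6 tested) and 4 without male control 2 (8 tested). In females the count was 0 under every alternative run. For the interaction it was 0 to 1 over left-out libraries and 0 otherwise. All 154 genes had reads at a minimum of 1 estimated read, and 134 at 5. Igha passed in males under each alternative run. Igkv10-96 passed under each that kept it, but it was not in the fit of the 4-group model. Igkc had limma adjusted p = 0.0794 with no filter and 0.0752 in the 4-group model.

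Of values that changed sign, Pigr in males went to -0.061 with median-of-ratios scaling, -0.28 with array weights and -0.36 without male control 3. In females Igkc went to -0.33 with array weights, to -0.40 without Kl/Kl replicate 3 and to -0.42 with voom at 0.1 TPM without it. Jchain went to -0.14 with array weights and -0.46 with voom at 0.1 TPM without replicate 3, Iglc1 to -0.019 with array weights, and Ighm to -0.39 with array weights, -0.12 with age and -0.68 with voom at 0.1 TPM without Kl/Kl replicate 3, where voom with all libraries gave 0.21. Leaving out single libraries, Ighm ranged from -0.42 to 0.43, Igkc from -0.40 to 1.02 and Pigr from -0.36 to 0.41. The cause was not tested.

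With the replicate number as a block, 9 genes fell in males and 0 passed in females and for the interaction. Same-numbered libraries correlated at -0.177 to 0.041 in males and -0.116 to 0.29 in females. With so few libraries these correlations cannot decide whether the numbers pair the samples. Same-numbered control and Kl/Kl libraries hold adjacent library numbers, so a pairing remains possible. Depth limits the low genes: Kl/Kl males had as few as 111 heavy-chain reads, and single V genes often rest on fewer than 5 reads.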

Other observations

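Irf4, a transcription factor of plasma cells and activated lymphocytes, was singled out after its values were seen. It was 0.837 TPM in Kl/Kl male 1 and at most 0.109 TPM in the other 7 male libraries, and Kl/Kl male 1 also had the most IgG reads of the males (9.04 per M reads). It was 1.78 TPM in the library labelled female Kl/Kl replicate 3 and at most 0.101 TPM in the other females.

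The T cell genes did not all go one way in males. Trac, the constant gene of the T cell receptor alpha chain and the highest of them, was 0.738, 0.884 and 0.938 TPM in male controls and 0.466, 0.361, 0.322, 0.166 and 0.375 TPM in Kl/Kl males, with no overlap, below the filter of the test. Lck, a kinase of T cell receptor signalling, was higher in Kl/Kl males, at 0.0172 to 0.0212 TPM in controls and 0.0308 to 0.0650 TPM in Kl/Kl males. Cd4, the coreceptor of helper T cells, was 0.0114 to 0.0142 TPM and 0.0148 to 0.0419 TPM, where estimated reads overlapped. All 3 were chosen after their values were seen. In females Trac was 0.322 to 0.582 TPM in controls and 0.413 to 0.430 TPM in Kl/Kl libraries. Fcgr2b, the inhibitory IgG receptor, also chosen after its values were seen, was 1.58, 1.88 and 0.838 TPM in male controls and 0.481 to 0.915 TPM in Kl/Kl males, overlapping through control 3. Fcamr of the same list was also lower on average (log2 change -0.59, limma adjusted p = 0.128). Others of that list went the other way without overlap. Fcgrt was 6.84 to 13.4 TPM in male controls and 14.4 to 22.2 TPM in Kl/Kl males (limma adjusted p = 0.107). Fcgr3, below the filter, was 0.0349 to 0.119 TPM and 0.171 to 0.360 TPM.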
